A study of Rattus norvegicus with 6 samples.

Results

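The S100 proteins are small calcium sensors of the EF-hand type, in which a helix-loop-helix holds the calcium ion. Most of them form dimers, and calcium opens a surface that then binds a target protein inside the cell or, after release, a receptor on another cell. In liver they are known mainly from immune cells, mesenchymal cells and bile duct cells. The family was read here as 9 genes, S100a1, S100a4, S100a6, S100a8, S100a9, S100a10, S100a11, S100a13 and S100b. Each was found by its symbol in 1 row of the deposited expression table, which held 19616 genes.

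RNA sequencing was performed on liver tissue of 6 rats. In the FL group (liver fibrosis; FL2, FL5 and FL12), male SD rats were injected intraperitoneally with CCl4 mixed into the same volume of olive oil, at 2 mL/kg and 2 times a week for 5 weeks. In the CL group (controls; CL5, CL6 and CL7), male SD rats received olive oil alone in the same volume. The age of the rats was not given in the sources used here. Expression was given as FPKM, the fragments of a transcript per kilobase of its length, scaled to the mapped fragments of the library. Levels of different genes can thus be compared within a rat, as far as each row reflects the level of its gene. This could not be settled for the very low Col1a2 and Myh9 rows given below. The read total of each library is unknown, and the FPKM summed over all genes ranged from 272110 in FL12 to 340467 in CL6. The tissue label held for the hepatocyte-like markers, with Alb, the gene of serum albumin, at a mean of 28540 FPKM over the 6 rats. These are pieces of whole liver, in which fewer cells of a type and less RNA per cell cannot be told apart.

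Expression of 6 of the 9 S100 genes was upregulated in the FL group, and S100a11, S100a10 and S100a6 were the most abundant of the 9 in both groups. A gene was tested where its mean over the 6 rats reached 0.1 FPKM, and it was called where the adjusted p was under 0.05 and the fold change at least 2, both from limma on log2(FPKM + 0.1). That scale understates the change of genes with low values. Of the 9 genes, 8 were tested, and all 8 also reached 0.1 FPKM in the CL group alone. S100a4, S100a6, S100a8, S100a9, S100a10 and S100a11 were called upregulated, against 9.29% of the 14864 genes tested (1381 genes). No member was called downregulated by limma, against 0.935% of all genes (139 genes). At an unadjusted p under 0.05, 6 members were higher and 0 lower in the FL group, against 31.5% and 4.04% of all genes tested. In the same 6 genes every FL rat lay above every CL rat, which was also so for 35.7% of all genes tested. The median log2 fold change was 2.0 over the 8 members tested and 0.29 over all genes. This shift of all genes was 0.08 after median scaling and −0.04 after quantile normalization, where the split of all genes called became 453 up and 231 down. The log2 fold changes of the 6 called members were above 0 under all 3 scalings, while that of S100a13 fell below 0 after both rescalings and that of S100a1 after quantile normalization. The count of members called was 4 without CL5, CL6, CL7 or FL2 and 3 without FL5 or FL12. The count of all genes called upregulated was 740 without CL7 and 745 without FL5, and the count called downregulated was 81 without CL6 and 81 without CL7.

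**Figure D1:**
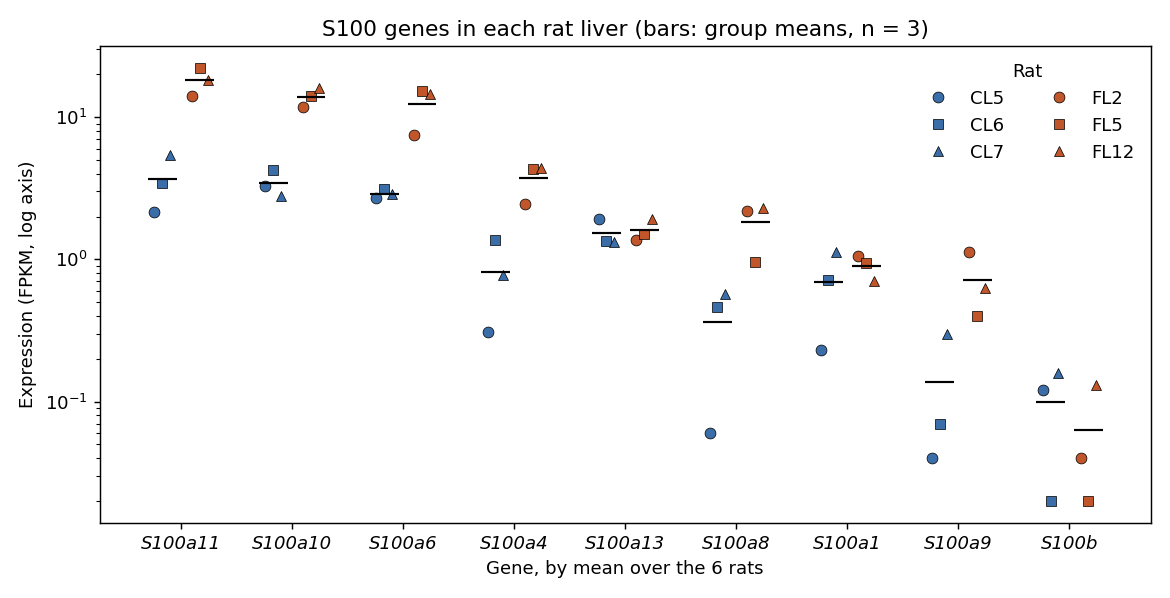
Expression of the 9 S100 genes in each rat, in FPKM on a log axis, with CL rats in blue, FL rats in orange and bars at the group means of 3 rats. The FL rats lie above all CL rats for S100a4, S100a6, S100a8, S100a9, S100a10 and S100a11, and the groups overlap for S100a1, S100a13 and S100b.

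The first genes are those whose proteins act on membranes and annexins, and they were the most abundant of the 9. S100a11 (ENSRNOG00000010105) encodes a partner of annexin A1 that takes part in membrane repair and growth control. Its expression was 2.17 FPKM in CL5, 3.47 in CL6 and 5.39 in CL7, and 14.09 in FL2, 22.16 in FL5 and 18.2 in FL12. CL7 was the highest control and still lay far under FL2, the lowest fibrotic rat, so the groups did not overlap. The group means were 3.68 ± 1.62 FPKM for CL rats and 18.2 ± 4.04 FPKM for FL rats (SD, n = 3). The log2 fold change by limma was 2.34 (SE 0.31, adjusted p = 0.00471), or 2.05 above the median of all genes. S100a10 (ENSRNOG00000023226) encodes p11, which has lost calcium binding and is held in a complex with annexin A2 at the cell membrane, where it binds plasminogen. S100a10 was at 3.3 FPKM in CL5, 4.26 in CL6 and 2.79 in CL7, and at 11.7 in FL2, 14.07 in FL5 and 16.04 in FL12. Its groups were well apart, and its rats differed least from each other among the upregulated members of the FL group. The means were 3.45 ± 0.746 FPKM and 13.9 ± 2.17 FPKM (SD, n = 3). The log2 fold change was 1.99 (SE 0.19, adjusted p = 0.00165 by limma), or 1.70 above the median of all genes.

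S100a6 (ENSRNOG00000011647) encodes calcyclin, found in fibroblasts and epithelial cells and known to bind annexins and the calcyclin-binding protein. Its expression was 2.69 FPKM in CL5, 3.13 in CL6 and 2.88 in CL7, against 7.53 in FL2, 15.22 in FL5 and 14.55 in FL12. The CL rats were almost alike, FL2 was the lowest FL rat, and the groups did not overlap. The means were 2.90 ± 0.221 FPKM and 12.4 ± 4.26 FPKM (SD, n = 3), and the log2 fold change was 2.0 (SE 0.26, adjusted p = 0.00437 by limma). S100a6, S100a10 and S100a11 were also called upregulated under each of the 15 alternative settings tried, which included leaving out each rat in turn. S100a4 (ENSRNOG00000011821) encodes a protein that binds non-muscle myosin, acts in cell movement and is known from fibroblasts and myeloid cells. It was at 0.31 FPKM in CL5, 1.37 in CL6 and 0.78 in CL7, and at 2.44 in FL2, 4.3 in FL5 and 4.42 in FL12. CL5 was the lowest control, FL2 the lowest fibrotic rat, and again no CL rat reached an FL rat. The means were 0.82 ± 0.531 FPKM and 3.72 ± 1.11 FPKM (SD, n = 3), with a log2 fold change of 2.19 (SE 0.45, adjusted p = 0.0162 by limma). The call of S100a4 was lost without CL7 (adjusted p = 0.0558), without FL5 (0.0631), without FL12 (0.0559) and with no filter on low values (0.0685), and over all alternatives its adjusted p ranged from 0.0133 to 0.0685.

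S100a8 and S100a9 encode the subunits of calprotectin, a complex stored in the cytosol of neutrophils and monocytes that binds zinc and manganese and, once released, TLR4 and RAGE. S100a8 (ENSRNOG00000011557) was at 0.06 FPKM in CL5, 0.46 in CL6 and 0.57 in CL7, and at 2.2 in FL2, 0.96 in FL5 and 2.29 in FL12. FL5 was the lowest FL rat, in contrast to the genes above, and it still exceeded all CL rats. The means were 0.363 ± 0.268 FPKM and 1.82 ± 0.743 FPKM (SD, n = 3), and the log2 fold change was 2.20 (SE 0.57, adjusted p = 0.035 by limma). S100a9 (ENSRNOG00000011483) was at 0.04 FPKM in CL5, 0.07 in CL6 and 0.3 in CL7, and at 1.13 in FL2, 0.4 in FL5 and 0.63 in FL12. FL5 was again the lowest FL rat, only a little above CL7, and the groups did not overlap. The means were 0.137 ± 0.142 FPKM and 0.72 ± 0.373 FPKM (SD, n = 3), with a log2 fold change of 1.85 (SE 0.51, adjusted p = 0.0409 by limma). Both calls were near the threshold. Leaving out any rat ended the call of S100a8, with an adjusted p by limma of 0.057 without CL5, 0.0593 without CL6, 0.0528 without CL7, 0.0731 without FL2, 0.0508 without FL5 and 0.104 without FL12. The call of S100a9 held without CL7 (adjusted p = 0.0416) and was lost without CL5 (0.115), CL6 (0.110), FL2 (0.0844), FL5 (0.0603) and FL12 (0.0951). Over all alternatives the adjusted p ranged from 0.0255 to 0.133 for S100a8 and from 0.0395 to 0.20 for S100a9, and neither was called after median scaling or quantile normalization.

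S100a1, S100a13 and S100b were not called. S100a1 (ENSRNOG00000012410) encodes a protein best known from heart and muscle, where it acts on calcium pumps and release channels. It was at 0.23 FPKM in CL5, 0.72 in CL6 and 1.12 in CL7, and at 1.05 in FL2, 0.95 in FL5 and 0.7 in FL12. The groups overlapped, since CL7 was the highest of all rats and CL5 the lowest. The log2 fold change was 0.52 (SE 0.46, adjusted p = 0.449 by limma), with a 95% confidence interval from −0.55 to 1.58, and it was −0.017 without CL5. S100a13 (ENSRNOG00000012393) encodes a protein that takes part in the export of FGF1 and IL-1α, which leave the cell without a signal peptide. It was at 1.93 FPKM in CL5, 1.35 in CL6 and 1.32 in CL7, and at 1.37 in FL2, 1.5 in FL5 and 1.92 in FL12. The groups covered almost the same range. The log2 fold change was 0.06 (SE 0.22, adjusted p = 0.861 by limma), with a 95% confidence interval from −0.45 to 0.57, so a change of 2-fold in either direction lay outside this interval. It fell below 0 without CL6 (−0.014), CL7 (−0.029) or FL12 (−0.071), and it was −0.15 after median scaling and −0.40 after quantile normalization. S100b (ENSRNOG00000001295) encodes a protein of astrocytes and Schwann cells. It was at 0.12 FPKM in CL5, 0.02 in CL6 and 0.16 in CL7, and at 0.04 in FL2, 0.02 in FL5 and 0.13 in FL12. These values are near the lower end of the table, the groups overlapped, and with a mean of 0.0817 FPKM the gene was not tested.

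**Figure D2:**
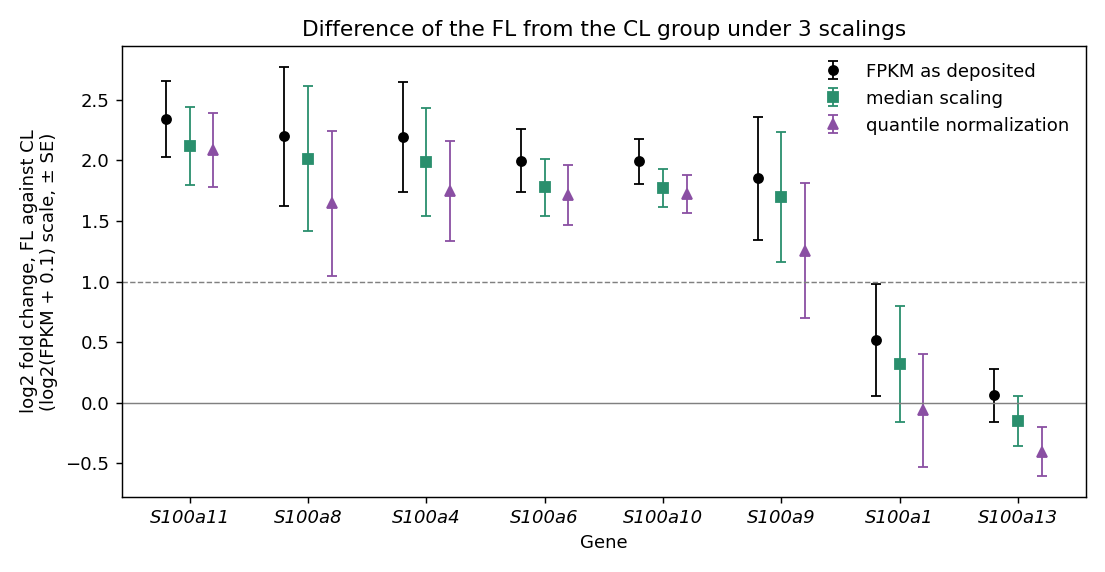
Log2 fold change of the FL against the CL group for the 8 S100 genes tested, on the log2(FPKM + 0.1) scale, with SE bars and 3 scalings of the values (solid line at no change, dashed line at 2-fold). S100a11, S100a8, S100a4, S100a6, S100a10 and S100a9 lie above the dashed line under all 3 scalings, S100a1 falls to −0.063 after quantile normalization, and S100a13 falls to −0.15 and −0.40 after the rescalings.

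Other S100 rows of the table were S100a16, S100a3, S100a5 and S100g. S100a16, a widely expressed member, was at 5.07 FPKM in CL5, 5.38 in CL6 and 4.78 in CL7, and at 7.19 in FL2, 7.27 in FL5 and 8.85 in FL12. In the CL group its mean of 5.08 FPKM lay above those of the 9 members. All FL rats lay above the CL rats, but the difference was small. Its log2 fold change was 0.60 (SE 0.13, adjusted p = 0.0201 by limma), which is under 2-fold, and 0.31 above the median of all genes. At an adjusted p under 0.05 with any fold change, 16.9% of all genes were higher in the FL group. S100a3, S100a5 and S100g (calbindin-D9k, a calcium carrier of the gut) were at 0 in most rats, with 0.33 FPKM of S100g in FL2 as their highest value, and were not tested. S100vp, a row outside the naming of the family, was above 0 only in FL12 (0.04 FPKM). Of the fused-type S100 genes of the skin, Tchh and Tchhl1 were found, both at 0 in all CL rats and at most 0.04 FPKM in the FL rats.

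Summed over the 9 members, expression was 10.85 FPKM in CL5, 14.85 in CL6 and 15.31 in CL7, and 41.55 in FL2, 59.58 in FL5 and 58.88 in FL12. The summed level was 3.90 times higher in the FL group, at 53.3 ± 10.2 against 13.7 ± 2.45 FPKM (SD, n = 3). S100a11 made up 26.2% ± 7.99 of this sum in the CL group and 34.0% ± 3.14 in the FL group. The share of S100a10 was 25.8% ± 6.60 and 26.3% ± 2.40, and that of S100a6 was 21.6% ± 3.02 and 22.8% ± 4.07. These 3 genes held most of the sum in both groups, and the shares of S100a10 and S100a6 differed by less than the spread between rats. The share of S100a13 was 11.8% ± 5.16 in the CL group and 3.03% ± 0.440 in the FL group, and that of S100a1 was 4.76% ± 2.60 and 1.77% ± 0.686. S100a8 and S100a9 held 3.60% ± 1.86 and 1.49% ± 1.09 of the sum in the FL group. When S100a16 and the other S100 rows were added to the sum, S100a16 held 27.3% ± 4.18 in the CL group and 12.9% ± 1.89 in the FL group.

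In the order of levels among the 9 members, S100a11, S100a10 and S100a6 were first in both groups, and their ranges overlapped. In the CL group they were followed by S100a13, which lay under all values of S100a6, and then by S100a4, S100a1, S100a8, S100a9 and S100b, where each range overlapped the next. In the FL group S100a4 came next, under S100a6 and above S100a8 without overlap. S100a8 and S100a13 overlapped there, S100a1 lay under S100a13, S100a1 and S100a9 overlapped, and S100b was under all of them. S100a8 thus ranked above S100a13 and S100a1 by mean in the FL group and under both in the CL group.

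The ratio of transcript levels was compared within each rat for genes whose proteins form complexes, where scaling between libraries cancels. With 3 rats against 3 there are 20 assignments, and the smallest two-sided p of the exact permutation test is 0.1. The ratio of S100a11 to Anxa1 was 0.751 in CL5, 1.2 in CL6 and 1.58 in CL7, and 3.00 in FL2, 2.92 in FL5 and 2.09 in FL12. S100a11 was thus higher relative to its partner in each FL rat than in any CL rat. The log2 ratio was 0.17 ± 0.54 in the CL group and 1.40 ± 0.29 in the FL group (SD, n = 3), a difference of 1.23 (exact permutation p = 0.1, the smallest possible, and 0.3 adjusted over the 3 ratios). The ratio of S100a10 to Anxa2 was 0.737 in CL5, 0.854 in CL6 and 0.631 in CL7, and 1.35 in FL2, 0.628 in FL5 and 0.873 in FL12. FL2 had the highest and FL5 the lowest ratio, and the log2 difference of 0.30 did not exceed the spread (exact permutation p = 0.5, adjusted 0.75). The difference was 0.01 without FL2 and 0.57 without FL5. The ratio of S100a8 to S100a9 was 1.5 in CL5, 6.57 in CL6 and 1.9 in CL7, and 1.95 in FL2, 2.4 in FL5 and 3.64 in FL12. S100a8 exceeded S100a9 in every rat. In CL5 the ratio rested on 0.06 FPKM of S100a8 and 0.04 of S100a9, and in CL6 on 0.07 FPKM of S100a9. These values are coarse at 2 decimals. The log2 difference between groups was −0.05 (exact permutation p = 1). This value turned positive without CL6 (0.61), without FL2 (0.15) and without FL5 (0.00250). It was also positive with a pseudocount of 0.1 (0.35, exact permutation p = 0.5, unadjusted). With a pseudocount of 1 it was 0.45 (exact permutation p = 0.1, the smallest possible, unadjusted).

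The FL rats did not rank alike for all members. FL2 was the lowest FL rat for 5 of the 9 genes, S100a4, S100a6, S100a10, S100a11 and S100a13, while FL5 was the lowest for S100a8, S100a9 and S100b. Within the FL group the highest rat exceeded the lowest 2.02 times for S100a6, 1.57 times for S100a11 and 1.37 times for S100a10. The same figure was 2.39 for S100a8 and 2.83 for S100a9. In the CL group, CL5 was the lowest rat for 6 of the 9 members. Whether these orders are linked was not tested.

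Released S100 proteins act through a small set of receptors. Of 12 genes for S100 receptors and their signalling, 2 were upregulated and none was downregulated by limma, against 9.29% and 0.935% of all genes. At an unadjusted p under 0.05, 7 were higher and 0 lower in the FL group, against 31.5% and 4.04% of all genes, and of the 7, Cd36 passed the filter only through the FL group. The median log2 fold change of the list was 0.47, against 0.29 over all genes. Cd33, a sialic acid receptor of myeloid cells that binds S100A9, was at 0.45 FPKM in CL5, 0.07 in CL6 and 0.29 in CL7, and at 1.43 in FL2, 2.95 in FL5 and 3.1 in FL12. The groups were far apart, with a log2 fold change of 2.89 (adjusted p = 0.00814 by limma). Tlr4, the endotoxin receptor that also binds calprotectin, was at 1.29 FPKM in CL5, 0.68 in CL6 and 0.63 in CL7, and at 1.67 in FL2, 2.27 in FL5 and 1.96 in FL12. Its groups did not overlap, but CL5 came close to FL2. The log2 fold change of Tlr4 was 1.15 (adjusted p = 0.0293 by limma, 0.0204 to 0.173 over the alternatives), and the list held 1 upregulated gene without CL6, CL7, FL5 or FL12. Bsg (basigin), the most abundant of the list, was at 112 ± 15.8 FPKM in CL livers and 171 ± 28.5 in FL livers (SD, n = 3) and was not called. Ager, the gene of RAGE, was at 0.103 ± 0.0493 and 0.123 ± 0.0208 FPKM (SD, n = 3), near the filter in both groups. Cd14, the coreceptor of TLR4, was at 13.6 ± 2.97 and 9.11 ± 4.44 FPKM (SD, n = 3), and its groups overlapped.

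Of the intracellular partners of S100 proteins, 26 of 28 were tested, 10 were upregulated (9.29% of all genes) and none was downregulated (0.935% of all genes) by limma. At an unadjusted p under 0.05, 16 were higher and 0 lower, next to 31.5% and 4.04% of all genes, and the median log2 fold change was 0.46. Whether this list differs from all genes was not tested. They included the phagocyte NADPH oxidase subunits Ncf1, Cyba and Cybb, the annexins Anxa1, Anxa2 and Anxa5, and Ahnak, Plat and Iqgap1. Ncf1, whose product p47phox starts the oxidase to which calprotectin brings arachidonic acid, was at 1.16 FPKM in CL5, 1.28 in CL6 and 1.01 in CL7, and at 5.05 in FL2, 5.95 in FL5 and 4.16 in FL12. Its rats were close within each group, and the log2 fold change was 2.04 (adjusted p = 0.00165 by limma). Ahnak, a giant scaffold that binds the complex of S100A10 with annexin A2, had a mean of 2.61 ± 0.147 FPKM in CL livers and 9.75 ± 3.78 in FL livers (SD, n = 3), with a log2 fold change of 1.78 (adjusted p = 0.00686 by limma). Anxa2 was at 4.63 ± 0.313 and 16.5 ± 7.08 FPKM (SD, n = 3), which was 1.70 as log2 fold change (adjusted p = 0.0115), and Anxa1 at 3.06 ± 0.300 and 6.99 ± 2.07, a log2 fold change of 1.12 (adjusted p = 0.0153). Plat, for the plasminogen activator that S100A10 binds, had a log2 fold change of 1.75 (adjusted p = 0.0215), while Plg, the most abundant gene of the list, was at 1058 ± 38.8 and 961 ± 106 FPKM (SD, n = 3) and was not called. Without FL5, 6 of the partners were called. The call of Plat was lost without CL5, CL7, FL5 or FL12, with no filter and after quantile normalization (adjusted p up to 0.0788 over the alternatives) and that of Anxa1 without CL5, CL6, FL5 or FL12 (up to 0.0607), with a pseudocount of 1, with no filter and after both rescalings. Anxa2 lost its call with no filter (0.0553). Anxa5 kept its call only without FL2 among the 6 fits without a rat (up to 0.0884), and it was called in 5 of the 15 alternatives. Iqgap1 lost its call without FL5 and after both rescalings. Myh9, the myosin target of S100A4, was at 0.0933 and 0.167 FPKM on average, passed the filter through the FL group and was not called. This row is very low, and whether it reflects the level of the gene could not be settled.

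For comparison, 5 of 21 other EF-hand genes were upregulated and none was downregulated by limma, with the shares of all genes at 9.29% and 0.935% and a median log2 fold change of 0.49. At an unadjusted p under 0.05, 12 were higher and 1 was lower (31.5% and 4.04% of all genes), and of the 12, Ncs1 passed the filter only through the FL group. Sri (sorcin), a calcium sensor that binds annexins, was at 7.37 ± 1.40 FPKM in CL livers and 21.8 ± 3.21 in FL livers (SD, n = 3). Its log2 fold change was 1.56 (adjusted p = 0.00267 by limma), and it was called under all 15 alternatives. The others called were Chp2 with a log2 fold change of 1.39 (adjusted p = 0.0461) and the reticulocalbins of the secretory pathway, Rcn3 with 1.38 (0.0198), Rcn1 with 1.25 (0.0138) and Rcn2 with 1.12 (0.0151). The list held 1 upregulated gene without FL5, 2 without CL6 or CL7 and 3 without CL5, and without CL7 1 gene was downregulated. It held 3 upregulated genes with a pseudocount of 1 or after median scaling, and 2 with no filter or after quantile normalization. The calmodulin genes Calm2 and Calm3 were not called, with CL and FL means of 30.3 and 33.0 FPKM for Calm2 and 16.3 and 22.9 FPKM for Calm3. Nucb1 was the most abundant of the list, at 74.1 ± 4.46 and 87.8 ± 12.2 FPKM (SD, n = 3).

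Some markers of cell types that carry S100 proteins were also called upregulated. Whether the lists of markers differ from all genes was not tested. Of the neutrophil-like markers, 3 of 7 tested were upregulated (9.29% of all genes), Lcn2, Csf3r and Fcnb, with log2 fold changes of 5.68, 1.72 and 1.68 (adjusted p = 0.0152, 0.0147 and 0.0270 by limma). The sum of the list was 2.32 FPKM in CL5, 2.49 in CL6 and 4.42 in CL7, and 495 in FL2, 15.7 in FL5 and 172 in FL12. Most of it was Lcn2, a gene that hepatocytes also express, at 490.5 FPKM in FL2, 13.14 in FL5 and 168.3 in FL12. Of the granule genes of neutrophils, Prtn3 was at 0 in all rats, Mpo at most 0.06 FPKM, Elane at most 0.04 and Camp above 0 only in CL5 (0.12). Np4 was above 0 only in FL2 (0.08) and FL12 (0.29). Mmp8 had a mean of 0.1 FPKM in CL livers and 0.453 in FL livers, Ngp 0.07 and 0.183, and Mmp9 0.0467 and 0.273. The groups of these 3 did not overlap (35.7% of all genes tested) and none was called, and Ngp and Mmp9 passed the filter only through the FL group. Cxcr2 had a mean of 0.147 FPKM in CL livers and 0.47 in FL livers. Its groups overlapped and it was not called (log2 fold change 1.19, adjusted p = 0.109 by limma). At an unadjusted p under 0.05, 5 of the 7 tested were higher and 0 lower (31.5% and 4.04% of all genes). Csf3r, the receptor of the neutrophil growth factor, was at 0.1 FPKM in CL5, 0.21 in CL6 and 0.19 in CL7, and at 1 in FL2, 0.52 in FL5 and 0.84 in FL12. The list held 1 upregulated gene without CL5, CL6, CL7 or FL12. Over the alternatives the adjusted p by limma was up to 0.0711 for Lcn2, 0.0945 for Csf3r and 0.181 for Fcnb. The part of neutrophil-like cells in the levels of S100a8 and S100a9 was not tested.

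Of 16 macrophage or monocyte-like markers, 7 were upregulated (9.29% of all genes) and 13 were higher at an unadjusted p under 0.05 (31.5% of all genes). The called genes included Gpnmb, Lyz2 and Itgam with log2 fold changes of 4.54, 3.13 and 2.19 (adjusted p = 3.64e-04, 0.00165 and 0.00319 by limma). Trem2, also called (4.46, adjusted p = 0.00102), passed the filter only through the FL group, with a mean of 0.0833 FPKM in CL livers. The other 9 were not called by limma. Among them the log2 fold change was −0.02 for Clec4f, 0.11 for Mrc1, 0.45 for Cd163 and 0.51 for Vsig4. The adjusted p by limma of these was 0.974, 0.516, 0.110 and 0.131. The rest, C1qa, C1qb, C1qc, Adgre1 and Ccr2, lay between 0.66 (C1qc) and 0.88 (Ccr2). The sum of the list was 226.2 FPKM in CL5, 216 in CL6 and 216.6 in CL7, and 512 in FL2, 590 in FL5 and 391 in FL12. C1qc was the most abundant by the mean over the 6 rats, at 42.3 ± 2.28 FPKM in CL livers and 68.7 ± 18.7 in FL livers (SD, n = 3). Within the CL group Clec4f (47.15) lay above C1qc, and within the FL group Gpnmb (101) did. No gene of this list was at 0 in all rats. Of 13 stellate cell or myofibroblast-like markers tested, 7 were upregulated (9.29% of all genes), and 12 were higher at an unadjusted p under 0.05. The called genes were led by Col1a1, Loxl1, Fbln1 and Col3a1 with log2 fold changes of 4.24, 3.18, 2.53 and 2.37 (adjusted p = 0.00519, 0.00614, 0.00465 and 0.00490 by limma). Acta2, Tagln, Timp1 and Hand2 were not called (adjusted p = 0.0609, 0.0621, 0.0795 and 0.107 by limma). Reln was not called because its change was under 2-fold (log2 fold change 0.54, adjusted p = 0.0326 by limma). Lrat was not called either (−0.07, adjusted p = 0.758 by limma). The sum of this list was 94.5 FPKM in CL5, 100.2 in CL6 and 90.8 in CL7, and 217 in FL2, 564 in FL5 and 519 in FL12, with Col3a1 the most abundant at 49.0 ± 2.65 and 274 ± 115 FPKM (SD, n = 3). FL2 had the lowest sum of the FL rats here, and it was also lowest for S100a4, S100a6, S100a10, S100a11 and the uncalled S100a13. FL2 likewise had the lowest FL sum of the hepatocyte-like, cholangiocyte-like, Schwann cell or neural-like and cycling lists. This was not so for the neutrophil-like, macrophage or monocyte-like, endothelial-like, lymphocyte-like and erythroid-like lists. The Col1a2 row stood at 0.18 FPKM or less in all rats, although Col1a1 reached 101 FPKM in FL5, and it was not tested. The part of these cell types in the S100 levels was not tested.

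The other marker lists held fewer called genes, and their counts stand against 9.29% upregulated and 0.935% downregulated of all genes. Of 10 cholangiocyte-like markers, Sctr was upregulated (log2 fold change 2.08, adjusted p = 0.0442 by limma), and the sum was 18.0 ± 2.16 against 29.0 ± 7.0 FPKM (SD, n = 3), with Anxa4 the most abundant at 6.38 and 12.6 FPKM. The keratin genes did not follow, with log2 fold changes of −0.82 for Krt7 and −0.01 for Krt19 (adjusted p = 0.259 and 0.981). Of the Schwann cell or neural-like markers, 2 of 5 tested were upregulated, Ncam1 (3.55, adjusted p = 0.00566) and Pmp22 (1.43, adjusted p = 0.0497). Gfap of this list was at a mean of 0.913 FPKM in CL livers and 0.583 in FL livers, lower without overlap and not called (log2 fold change −0.60, adjusted p = 0.143), and Mbp was at −0.03. After quantile normalization Gfap was called downregulated (adjusted p = 0.0222 by limma). Of the Schwann cell genes, Sox10 was at most 0.04 FPKM and Cdh19 was at 0 in all rats, beside the low values of S100b. Of 10 markers of cycling cells, Cenpf (1.88, adjusted p = 0.0264) and Mki67 (1.73, adjusted p = 0.0478) were upregulated, with sums of 7.04 FPKM in CL5, 8.49 in CL6 and 7.09 in CL7, against 10.1 in FL2, 27.9 in FL5 and 26.0 in FL12. The list of cycling cells held 8 upregulated genes without FL2, 1 without CL6 and 0 without CL5, CL7, FL5 or FL12. Vwf was the upregulated gene of 9 endothelial-like markers (1.05, adjusted p = 0.0256) and Cd2 that of 8 lymphocyte-like markers (1.39, adjusted p = 0.0233). The cholangiocyte-like list held 3 upregulated genes without FL2 and 0 without any other rat. The lymphocyte-like list held 2 without FL12 and 0 without CL5, CL6 or FL5. Among the genes named here from these lists, the call of Ncam1 held when any rat was left out, and the others held in 1 to 3 of the 6 fits without a rat. None of 10 hepatocyte-like and 7 erythroid-like markers was called by limma, and at an unadjusted p under 0.05, 2 of the former were higher and 1 of the latter was lower (31.5% and 4.04% of all genes). Without FL2, 1 hepatocyte-like marker was called upregulated, and of the erythroid-like markers 1 was called upregulated and 3 downregulated. The summed hepatocyte-like level was 44680 ± 1329 FPKM in CL livers and 36060 ± 1259 in FL livers (SD, n = 3). Most of this sum was Alb, at 32270 ± 1010 and 24800 ± 572 FPKM. By mean FPKM, Alb, Ttr, Apob, Hnf4a and Asgr1 were lower in the FL group. Apoa1, Tat, Cyp2e1, Serpina1 and Cps1 were higher, with Apoa1 at 1149 and 1919 FPKM without overlap.

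The genes with the most similar pattern to each member over the 6 rats were found by the root mean square difference of log2(FPKM + 0.1), after subtracting the mean of each gene, among 10527 genes whose mean reached 1 FPKM. For S100a6 these were Col6a2 (0.08), Vim (0.10) and Gab2 (0.11). Vim was at 9.18 FPKM in CL5, 10.81 in CL6 and 8.99 in CL7, against 26.46 in FL2, 53.14 in FL5 and 42.12 in FL12. For S100a10 they were Hvcn1 (0.15), Glipr1 (0.16) and Ptk2b (0.16), and for S100a11 Des (0.15), AC096239.3 (0.22) and Clec4a3 (0.29). For S100a4 they were Plat (0.27), Cpxm1 (0.28) and AC096239.3 (0.30). The nearest genes of S100a8 lay farther away, Sh3pxd2b (0.44), RNaseP_nuc (0.55) and Pcolce (0.55), and for S100a9 they were Slc30a3 (0.29), SNORD49 (0.38) and Lbp (0.41). Lbp was at 179.9 FPKM in FL2, 49.23 in FL5 and 83.27 in FL12. Genes were picked for likeness to a member over these same rats, so a shared order of the FL rats largely follows from the choice. S100a1 was nearest to Naif1 (0.22), Mt-nd4l (0.25) and Mt-atp8 (0.25), and S100a13 to Aldh3a2 (0.04), Raph1 (0.05) and Cog2 (0.05). Between members the same measure was 0.26 for S100a6 and S100a10, 0.42 for S100a6 and S100a11, 0.46 for S100a4 and S100a11, and 0.54 for S100a8 and S100a9. S100a6 and S100a10 were the most alike of these, and S100a8 differed from S100a13 by 1.39.

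The table placed 8 of the 9 genes on chromosome 2 and S100b on chromosome 20. In the gene order of RefSeq (assembly GRCr8), S100a1 and S100a13 are neighbours at the end of the cluster, followed by S100a16, S100a4, S100a6, S100a8 and S100a9, and farther on by S100a11 and S100a10, which are next to each other. Of the 9 genes, those tested and not called thus lay side by side. From S100a1 to S100a10 RefSeq lists 71 protein-coding genes, 15 of them named S100. Of the other 56 genes, mostly of the skin barrier, 4 were matched by symbol to the table (Tchh, Tchhl1, Sprr1a and Ivl), and 0 of these reached the filter. Outside the cluster the gene next to S100a1, Chtop, had no row matched by symbol. Beyond it, Snapin, Ilf2 and Npr1 had log2 fold changes of 0.22, 0.11 and 0.14 and were not called.

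The bases before the starts of the members were searched for 5 short motifs. RefSeq promoters (GRCr8, 250 bases before to 50 after the start) were matched for 6 of the 9 members, S100a4, S100a6, S100a9, S100a11, S100a13 and S100b. For S100a6 and S100b the start used lies within the span that RefSeq gives for the gene, so these stretches hold bases of the gene itself. Both strands were read, and positions are those of the first base of a match, with −1 for the base before the start. The TATA box TATAAA was found in 14.2% of all 33469 promoters and in 2 of the 6, at −31 in S100a4 and at −42 in S100a9. The SP/KLF motif GGGCGG was in 33.1% of all promoters and in 3 of the 6, at −80 in S100a6, at −82 in S100a13 and at −64 and −59 in S100a11, where the matches overlap. The C/EBP motif TTNNGNAA was in 41.3% of all promoters and in S100a9, at −173 on the opposite strand and at 10, counting the start base as 0. CCAAT was in 37.5% of all promoters and in S100a13 and S100b. The AP-1 motif TGANTCA was in 7.33% of all promoters and in 0 of the 6. A match is no evidence of binding. The 250 bases before the start of S100a4, S100a9 and S100a11 are shown with the matches in capitals, to set TATAAA in the first 2 beside GGGCGG in the third. They lie at chr2:178388279-178388528 (plus strand) for S100a4, chr2:178490623-178490872 (minus strand) for S100a9 and chr2:181874882-181875131 (plus strand) for S100a11 in GRCr8, each written from 5′ to 3′ toward the gene.
S100a4: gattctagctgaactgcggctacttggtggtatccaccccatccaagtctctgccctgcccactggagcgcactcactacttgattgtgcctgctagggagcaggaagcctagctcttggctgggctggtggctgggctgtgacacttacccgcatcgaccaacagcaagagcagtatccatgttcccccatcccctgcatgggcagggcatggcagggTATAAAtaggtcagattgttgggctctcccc
S100a9: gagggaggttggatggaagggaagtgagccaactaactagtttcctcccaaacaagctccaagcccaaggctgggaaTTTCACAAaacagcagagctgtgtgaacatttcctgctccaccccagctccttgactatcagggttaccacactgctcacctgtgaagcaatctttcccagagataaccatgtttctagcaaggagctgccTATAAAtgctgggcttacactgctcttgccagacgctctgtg
S100a11: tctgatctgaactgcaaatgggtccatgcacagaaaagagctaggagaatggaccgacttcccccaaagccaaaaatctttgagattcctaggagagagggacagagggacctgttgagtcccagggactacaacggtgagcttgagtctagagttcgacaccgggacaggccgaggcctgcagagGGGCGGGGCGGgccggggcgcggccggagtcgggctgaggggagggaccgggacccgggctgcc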

How the data were processed

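Total RNA from liver tissue of 6 rats, depleted of ribosomal RNA, was sequenced on an Illumina instrument. The authors removed adapters and low-quality bases, aligned reads with TopHat2 and deposited FPKM per gene from uniquely located reads. Their methods name the genome GRCH38, while the gene identifiers are those of rat Ensembl genes; the annotation release was not given, nor any use of strand beyond antisense reads of lncRNAs, which the authors left out. Read totals could not be recovered from the low FPKM values. The table held 19616 genes with 2 decimals, and 2 further value columns without a matching label were not used. Groups came from the sample titles. FPKM were tested as log2(FPKM + 0.1) with limma 3.58.1 in R 4.3.3 (trended prior), for the 14864 genes whose 6 rats averaged 0.1 FPKM or more. Benjamini-Hochberg adjustment was over all genes tested, and calls needed an adjusted p under 0.05 and at least 2-fold. The fitting was tested on simulated data. Ratios were compared by an exact two-sided permutation test, adjusted over 3 ratios. Alternatives were pseudocounts of 0.01 and 1, no filter or one at 1 FPKM, median scaling, quantile normalization, a robust prior, no trend, no fold limit, and leaving out each rat in turn. Named genes were the 9 members, other S100 rows, Anxa1 and Anxa2, from each list the called genes with the 4 largest fold changes and the most abundant gene, and the 3 nearest genes of each member; others were chosen after their values were seen. Some listed genes are not reported here. The members and lists were chosen with earlier results of these data known.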

Additional observations from a re-analysis of the deposited data

How the results depend on the processing

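S100a6, S100a10 and S100a11 were called under all 15 alternatives, S100a4 under 11 of 15, S100a8 under 4 of 15 and S100a9 under 4 of 14, and the log2 fold change of these 6 genes was above 0 in each. All genes called upregulated numbered 1381, and 462 with a pseudocount of 1, 846 with no filter, 854 with a mean of at least 1 FPKM, 824 after median scaling, 453 after quantile normalization, 2518 with no limit on the fold change and 740 to 1831 when a rat was left out. Downregulated genes numbered 139, and 72 with a pseudocount of 1, 78 with no filter, 231 after quantile normalization, 288 with no limit on the fold change and 81 to 160 when a rat was left out. Of the S100 members, 3 were upregulated with no filter and 3 to 4 when a rat was left out. Of the receptor list, 1 was upregulated with a pseudocount of 1, with no filter, after median scaling and after quantile normalization, 4 with no limit on the fold change, and 1 to 2 when a rat was left out. Of the partners, 6 were upregulated with no filter and 6 after quantile normalization, where 1 was downregulated, and 6 to 10 when a rat was left out. The log2 fold change of S100a1 was −0.063 after quantile normalization and −0.017 to 0.93 when a rat was left out. That of S100a13 was −0.15 after median scaling, −0.40 after quantile normalization and −0.071 to 0.23 when a rat was left out. The log2 ratio of S100a8 to S100a9 differed by 0.35 with a pseudocount of 0.1, 0.45 with 1 and −0.46 to 0.61 when a rat was left out. Leaving out a rat leaves fewer samples, and the other causes were not tested. Without the filter, S100b had a log2 fold change of −0.28 (SE 0.39, adjusted p = 0.666 by limma). No paired analysis was possible because the groups share only the number 5. With 3 rats a group and FPKM given to 2 decimals, values under about 0.1 FPKM are coarse.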
